A study of Mus musculus with 29 samples.

Results

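Both strands of the microRNA miR-378a, mmu-miR-378a-3p and mmu-miR-378a-5p, were followed across 6 groups of mouse serum and muscle libraries. They are 2 of the 695 mature miRNAs of 1183 in the table that have a value for every library (0 included), and they were chosen by name. The groups were old serum (4 libraries) and old muscle (5) from C57BL/6 mice aged 24 months, disuse serum (5) and disuse muscle (5) from mice of the same strain aged 6 months in a disuse-induced atrophy model, and young serum (5) and young muscle (5) from control mice aged 6 months. Muscle was the tibialis anterior, a mostly fast muscle at the front of the shin. How disuse was imposed, whether serum and muscle came from the same mice, and whether each library is a separate animal are not stated in the labels, so p-values measure the spread between libraries, which may be partly technical.

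A miRNA is cut from a hairpin precursor whose 2 arms, named 5p and 3p, each give a short strand. Usually one of them, the guide, is kept in the Argonaute protein and directs it to messenger RNAs, while the other is mostly degraded. miR-378a lies in an intron of Ppargc1b, which encodes PGC-1β, a coactivator of genes of mitochondrial respiration and lipid oxidation. It is known from mouse studies as a regulator of energy use in muscle, liver and fat, and the 3p strand is the usual guide. In the GENCODE M21 annotation of GRCm38 (mm10) the precursor gene Mir378a is at chr18:61397835-61397900 on the minus strand, inside Ppargc1b (chr18:61298136-61400431, minus strand), and it does not overlap an exon of that gene. An annotated miRNA gene on the opposite strand, Gm25301, overlaps it.

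The libraries held 45176 to 309133 counts in serum and 254624 to 5943445 in muscle, so a count of 0 allowed a level of up to 9.71 to 66.4 CPM (each count scaled to a common library size) in serum and 0.505 to 11.8 CPM in muscle. Levels below are CPM of the library total. Totals and ranks are over the 695 complete miRNAs. The 6 listed muscle miRNAs (miR-133a-3p, miR-133b-3p, miR-1a-3p, miR-206-3p, miR-208b-3p and miR-499-5p) together made 636 to 4654 CPM in serum libraries and 377020 to 523946 CPM in muscle libraries. In the serum libraries miR-208b-3p was at 0 counts in the old and young groups and miR-499-5p at 0 in the old and disuse groups. Each comparison is bulk tissue or serum, where fewer cells of a type and less RNA per cell cannot be told apart.

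The table also lists 3 further members of the miR-378 family, which were counted separately. Their mature sequences are shown because they are so alike that the share of reads given to each could depend on how reads matching several miRNAs were assigned, a rule that the labels do not state. They are the RefSeq sequences on GRCm38.p6, 5′ to 3′, with the seed (bases 2 to 8, the part that pairs with targets) in capitals. miR-378b is at chr11:88352839-88352858 on the plus strand, miR-378c at chr14:46954905-46954925 on the minus strand and miR-378d at chr10:126710355-126710376 on the minus strand.
miR-378b: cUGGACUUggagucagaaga
miR-378c: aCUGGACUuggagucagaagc
miR-378d: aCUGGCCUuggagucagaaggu
The 3 sequences share an unbroken run of 14 bases but have 3 different seeds. In the annotation the genes of miR-378b and miR-378c lie in introns of Msi2 and Samd4 on the opposite strand of their hosts, and that of miR-378d lies in no other gene.

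In muscle miR-378a-3p was among the most abundant miRNAs. Of the counts of the 695 complete miRNAs it took 4.65% ± 0.614 in old, 3.84% ± 0.372 in disuse and 3.79% ± 0.378 in young muscle (SD, n = 5 each). Among these miRNAs it was at rank 3, 4 and 4. In young muscle it stood between miR-22-3p (49495 ± 8461 CPM) and miR-3107-5p (32171 ± 7661 CPM). The 5p strand was far scarcer, at rank 80 in old, 85 in disuse and 96 in young muscle. In serum both strands were lower: miR-378a-3p was at rank 45 in old, 49 in disuse and 47 in young serum, and miR-378a-5p at 173, 162 and 177. In young serum miR-378a-3p stood between miR-181b-5p (1742 ± 1264 CPM) and miR-423-5p (1694 ± 157 CPM).

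**Figure D1:**
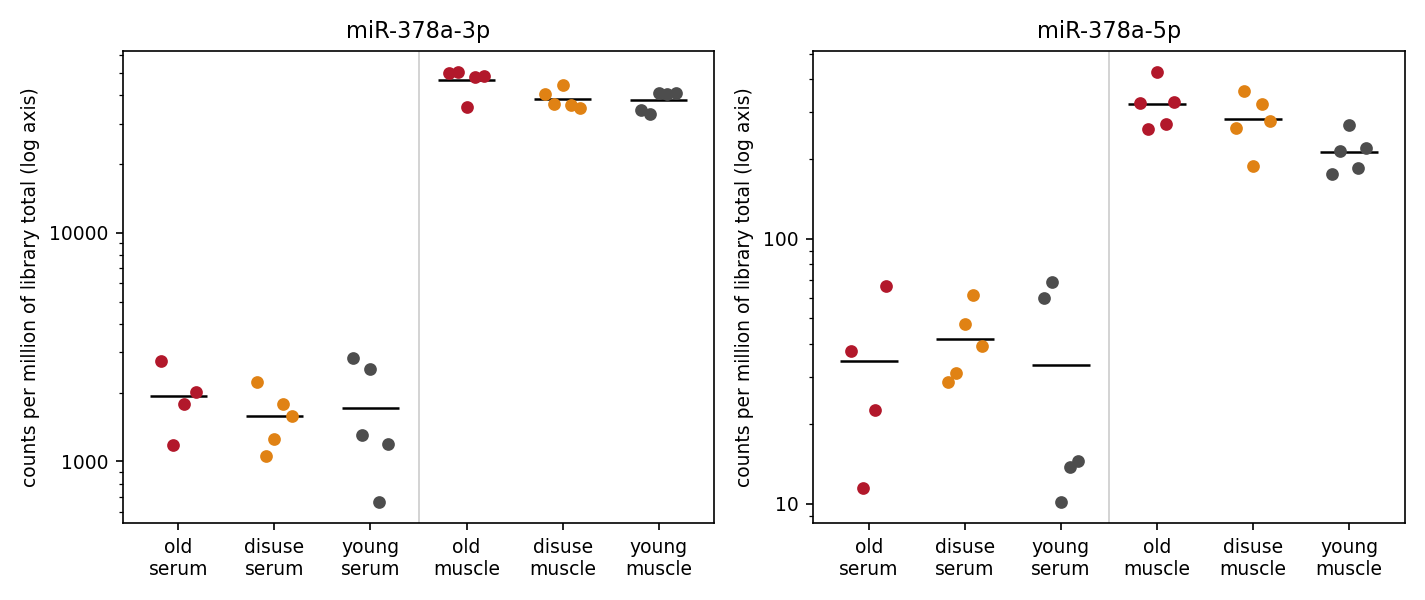
Levels of miR-378a-3p and miR-378a-5p in each library, in CPM of the library total on a log axis, by group; points are libraries and bars are group means (n = 4 for old serum, 5 for each other group). The serum points of each strand lie below all muscle points, and the groups within serum and within muscle overlap.

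Old muscle was set against young muscle to see what differs between 24 and 6 months of age. miR-378a-3p was at 49906, 50291, 35609, 47944 and 48544 CPM in old muscle, against 34477, 33119, 40779, 40362 and 40749 CPM in young muscle. Of the old libraries 4 lay above every young library and old muscle 3 lay among the young ones, so the groups overlapped. The log2 fold change was 0.29 ± 0.14 (SE), and it did not pass (edgeR's quasi-likelihood test, adjusted p = 0.226). The same guide strand was at 40195, 36529, 44112, 36330 and 34981 CPM in disuse muscle, which overlapped the young libraries nearly throughout. Its log2 fold change between disuse and young muscle was 0.10 ± 0.14 (adjusted p = 0.870), and between old and disuse muscle 0.19 ± 0.14 (adjusted p = 0.560). From high to low the mean levels ran old, disuse and young muscle, and no neighbours in that order differed beyond their spread. Within a group the level was steady, with a coefficient of variation of 13.2% in old, 9.68% in disuse and 9.96% in young muscle.

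The 5p strand had larger estimated changes against young muscle than the 3p strand, and none of them passed either. miR-378a-5p was at 326, 260, 425, 271 and 327 CPM in old muscle, against 175, 214, 268, 185 and 221 CPM in young muscle. All 5 old libraries lay above the young median, and the groups overlapped at young muscle 3. The log2 fold change was 0.60 ± 0.21, with an unadjusted p of 0.00897 and adjusted p = 0.0987 in edgeR's quasi-likelihood test. The strand was at 262, 360, 189, 322 and 278 CPM in disuse muscle, where 4 of 5 libraries lay above the young median and disuse muscle 3 below it. Against young muscle that gave a log2 fold change of 0.50 ± 0.21 (unadjusted p = 0.0252, adjusted p = 0.456), and between old and disuse muscle it was 0.09 ± 0.21 (adjusted p = 0.896). The comparisons of old and of disuse with young muscle share the same 5 young libraries. In order of mean level the strand also ran old, disuse and young muscle, with no neighbours past the test.

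Thus 0 of the 2 strands passed in each muscle comparison in edgeR's test. At an unadjusted p under 0.05, 1 of 2 was reached between old and young muscle, 1 of 2 between disuse and young muscle and 0 of 2 between old and disuse muscle. Neither strand passed with DESeq2 or limma-voom in these 3 comparisons. Of all 341 miRNAs tested, 5.87% passed between old and young, 0.293% between disuse and young and 3.52% between old and disuse muscle. Over all miRNAs tested, the median change was -0.01, 0.00 and -0.01 on the log2 scale. For miR-378a-5p in old against young muscle the call depended on single libraries. It passed without old muscle 2 (0.72, adjusted p = 0.0441), without old muscle 4 (0.77, adjusted p = 0.0258) or without disuse muscle 3 (0.63, adjusted p = 0.0497), whose spread enters the shared fit.

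Depth moved with this strand. The 4 shallowest muscle libraries, with 254624 to 535754 counts, were disuse muscle 3 and young muscle 1, 3 and 4, and 3 of these held the 3 lowest levels of miR-378a-5p among the 15 muscle libraries (189, 175 and 185 CPM). Their counts of the strand were 48, 47 and 99. With every muscle library thinned to the shallowest, the log2 fold change of miR-378a-5p was 0.37 ± 0.25 between old and young muscle (adjusted p = 0.451) and 0.34 ± 0.25 between disuse and young muscle (adjusted p = 0.761). Thinning was a single random draw per library that keeps its expected proportions and adds counting noise. It therefore cannot show what part depth had in the unthinned values, and that part was not tested. miR-378a-3p in the same 4 libraries was at 44112, 34477, 40779 and 40362 CPM, within the range of the other muscle libraries.

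**Figure D2:**
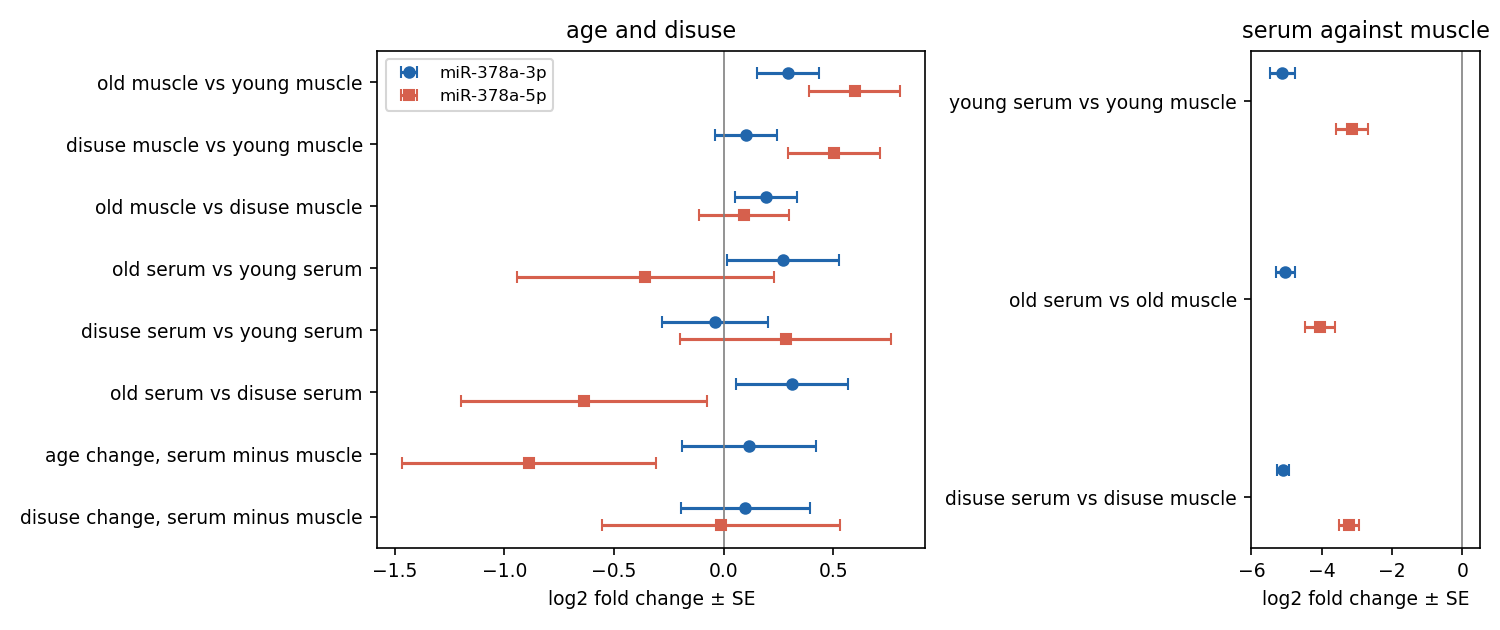
Log2 fold changes of miR-378a-3p (circles) and miR-378a-5p (squares) in edgeR, with bars of 1 SE, for the comparisons within muscle and within serum and the interaction terms (left) and for serum against muscle in each state (right). The 6 values on the right pass the test and lie between -5.12 and -3.14, and none on the left passes.

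The comparisons within serum ask the same of circulating miRNA. miR-378a-3p was at 2737, 1177, 1791 and 2014 CPM in old serum, 2231, 1053, 1255, 1779 and 1575 CPM in disuse serum, and 2836, 1306, 2543, 667 and 1192 CPM in young serum. The young libraries alone spanned a 4.25-fold range, and both other groups lay within it. The log2 fold change was 0.27 ± 0.25 between old and young serum (edgeR adjusted p = 0.529), -0.04 ± 0.24 between disuse and young serum (adjusted p = 0.968) and 0.31 ± 0.25 between old and disuse serum (adjusted p = 0.702). These SEs set what the serum libraries could show: a change of the size estimated in old muscle was not detectable at this depth and spread.

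miR-378a-5p rested on very few reads in serum. It had 3, 3, 4 and 3 counts in old serum, 5, 4, 8, 19 and 7 in disuse serum, and 8, 12, 1, 4 and 1 in young serum, or 11.5 to 66.4, 28.7 to 61.5 and 10.2 to 68.4 CPM. The 3 groups overlapped. Its log2 fold change was -0.36 ± 0.58 between old and young serum (adjusted p = 0.789), 0.28 ± 0.48 between disuse and young serum (adjusted p = 0.932) and -0.64 ± 0.56 between old and disuse serum (adjusted p = 0.720). At such counts each value moves by a large share with a single read.

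In the serum comparisons 0 of the 2 strands passed in edgeR's test, and 0 of 2 reached an unadjusted p under 0.05. Neither strand passed with DESeq2 or limma-voom. Of the 165 miRNAs tested in serum, 9.7% passed between old and young, 0.0% between disuse and young (20 at an unadjusted p under 0.05, and 0 with DESeq2 or limma-voom) and 2.42% between old and disuse serum. Of the 3 listed erythrocyte miRNAs 2 fell between old and young serum, and of the 3 liver and gut miRNAs 1 rose. The erythrocyte miRNAs (miR-451a, miR-144-3p and miR-144-5p) summed to 4150 to 8347 CPM in old, 8579 to 12804 in disuse and 7661 to 25311 in young serum. The liver and gut miRNAs (miR-122-5p, miR-192-5p and miR-194-5p) summed to 13658 to 24797 CPM in old, 7559 to 13499 in disuse and 7224 to 15789 in young serum. No member of either list was at 0 in a group, and their part in the levels of miR-378a was not tested.

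Serum against muscle in the same state asks which miRNAs of the tissue are also common in circulation. Both strands fell in serum relative to muscle in each of the 3 states, and the serum and muscle libraries did not overlap. miR-378a-3p averaged 1930 ± 644 CPM in old serum (n = 4) and 46459 ± 6141 CPM in old muscle (n = 5), a log2 fold change of -5.04 ± 0.27 or 32.9-fold lower (edgeR adjusted p = 2.33e-13). It averaged 1579 ± 460 CPM in disuse serum and 38429 ± 3719 CPM in disuse muscle (-5.10 ± 0.18, 34.4-fold lower, adjusted p = 1.1e-13). It averaged 1709 ± 933 CPM in young serum and 37897 ± 3776 CPM in young muscle (-5.12 ± 0.35, 34.7-fold lower, adjusted p = 6.41e-11). The estimates for the guide strand in the 3 states lay within 1 SE of each other. They depended on the scaling: with library totals in place of TMM factors they were 24.2-fold lower in old, 24.3-fold in disuse and 22.2-fold in young serum, and with thinned libraries 21.4-fold in old.

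miR-378a-5p averaged 34.5 ± 23.8 CPM in old serum and 322 ± 65.5 CPM in old muscle, a log2 fold change of -4.04 ± 0.42 or 16.5-fold lower (adjusted p = 2.52e-08, and 10.7-fold with thinned libraries). It averaged 41.7 ± 13.3 CPM in disuse serum and 282 ± 64.7 CPM in disuse muscle (-3.23 ± 0.28, 9.37-fold lower, adjusted p = 1.4e-08). It averaged 33.3 ± 28.3 CPM in young serum and 213 ± 36.6 CPM in young muscle (-3.14 ± 0.45, 8.83-fold lower, adjusted p = 2.53e-06). Without young serum 2 that value was -3.76 or 13.5-fold lower (adjusted p = 9.85e-07). The folds of this strand depended on the scaling too. With library totals they were 12.5-fold lower in old, 6.51-fold in disuse and 6.09-fold in young serum, and with thinned libraries 6.65-fold in disuse. A fall in serum is common: 2 of 2 strands passed downward in each state, as did 44.6% of the 316 miRNAs tested in old, 48.4% of 192 in disuse and 43.7% of 190 in young libraries. From the lowest fold change upward, miR-378a-3p was 35th in old, 18th in disuse and 22nd in young libraries. Extraction, and an input of 10 ng of serum RNA against 2 µg of muscle RNA, differed with the source in every library and cannot be told apart from it.

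Some of the listed muscle miRNAs had lower estimates than miR-378a-3p. miR-133a-3p, an abundant miRNA of skeletal and heart muscle, had log2 fold changes of -8.12 ± 0.31, -8.14 ± 0.41 and -8.10 ± 0.47 in old, disuse and young serum against muscle. Of the 6 listed muscle miRNAs, 5 were tested in old libraries and 4 in each other state, and each of them passed downward. Of all tested miRNAs 44.6% did so in old, 48.4% in disuse and 43.7% in young libraries. miR-499-5p, tested in old libraries only, was at 0 counts in old serum, so its fall is not to a measured serum level. The median over all tested miRNAs was -0.87 in old, -0.36 in disuse and -0.34 in young libraries. miR-206-3p, a miRNA of slow and regenerating fibres, fell less than miR-378a-3p by these estimates (-3.92 ± 0.61, -3.57 ± 0.54 and -4.73 ± 0.66). miR-1a-3p was close to it in old libraries (-4.98 ± 0.51) and lower in disuse and young ones (-6.35 ± 0.62 and -6.28 ± 0.60), and miR-208b-3p was not tested. None of these differences between miRNAs was tested.

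An interaction term in a fit of all 29 libraries compared each age or disuse change in serum with its counterpart in muscle. For miR-378a-3p the change with age was 0.12 ± 0.31 log2 units higher in serum than in muscle (unadjusted p = 0.707) and the change with disuse 0.10 ± 0.30 higher (unadjusted p = 0.739). For miR-378a-5p the values were -0.89 ± 0.58 (unadjusted p = 0.134) and -0.01 ± 0.54 (unadjusted p = 0.982). No strand passed, where 0.83% of the 241 tested miRNAs did for age and 0.0% for disuse (24 at an unadjusted p under 0.05, and 0 with DESeq2 or limma-voom).

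The balance between the strands was read within each library, where scaling between libraries has no part. In muscle there were 83.8 to 193 counts of 3p for each 5p count in old, 102 to 234 in disuse and 152 to 218 in young libraries. In serum there were 30.3 to 102 in old, 26.2 to 77.8 in disuse and 19.1 to 250 in young libraries. Put as a share, 5p made 1.69% ± 1.01 of both strands in old serum and 0.715% ± 0.268 in old muscle, 2.72% ± 0.934 in disuse serum and 0.743% ± 0.214 in disuse muscle, and 2.13% ± 1.73 in young serum and 0.559% ± 0.0864 in young muscle. Serum libraries mostly had lower 3p to 5p ratios than muscle libraries. The exceptions were young serum 3, which had 1 count of 5p against 250 of 3p (0.398%, exact 95% interval 0.0101 to 2.20%), and old serum 2, whose ratio of 102 lay above that of old muscle 3 (83.8). The intervals cover counting error only.

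The mean log2 ratio of 3p to 5p was 5.82 ± 0.77 in old serum and 7.18 ± 0.47 in old muscle (exact two-sided permutation p = 0.0238), 5.15 ± 0.60 in disuse serum and 7.11 ± 0.47 in disuse muscle (exact permutation p = 0.00794, the smallest this design allows), and 5.66 ± 1.14 in young serum and 7.48 ± 0.22 in young muscle (exact permutation p = 0.0238). Adjusted over the 9 comparisons made of this ratio, each of these was 0.0714 and none passed. At the smallest p allowed, a comparison that stood alone would also adjust to 0.0714. Full separation in 1 comparison therefore could not pass by itself. With a pseudocount of 1 in place of 0.5 the 3 passed, at adjusted exact permutation p = 0.0476 in old, 0.0357 in disuse and 0.0357 in young libraries. The call therefore depends on the pseudocount, and a larger pseudocount lowers the ratio most where 5p counts are few. They were 1 to 19 a library in serum and 47 to 1938 in muscle, so it moves these differences in the reported direction. Serum and muscle ratios did not overlap in the disuse libraries and did in the old and young ones.

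Within muscle the log2 ratio was lower by 0.30 in old than in young libraries (exact permutation p = 0.230) and by 0.37 in disuse than in young libraries (exact permutation p = 0.159). Between old and disuse muscle it differed by 0.07 (exact permutation p = 0.817). The lowest muscle ratio, 83.8, was in old muscle 3, which had the lowest 3p level and the highest 5p level of its group. The highest, 234, was in disuse muscle 3, the shallowest muscle library, which had the highest 3p level and the lowest 5p level of its group. Within serum the differences were 0.16 between old and young (exact permutation p = 0.833), -0.51 between disuse and young (exact permutation p = 0.444) and 0.67 between old and disuse libraries (exact permutation p = 0.175). The adjusted values for these 6 comparisons were 0.314 to 0.833.

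**Figure D3:**
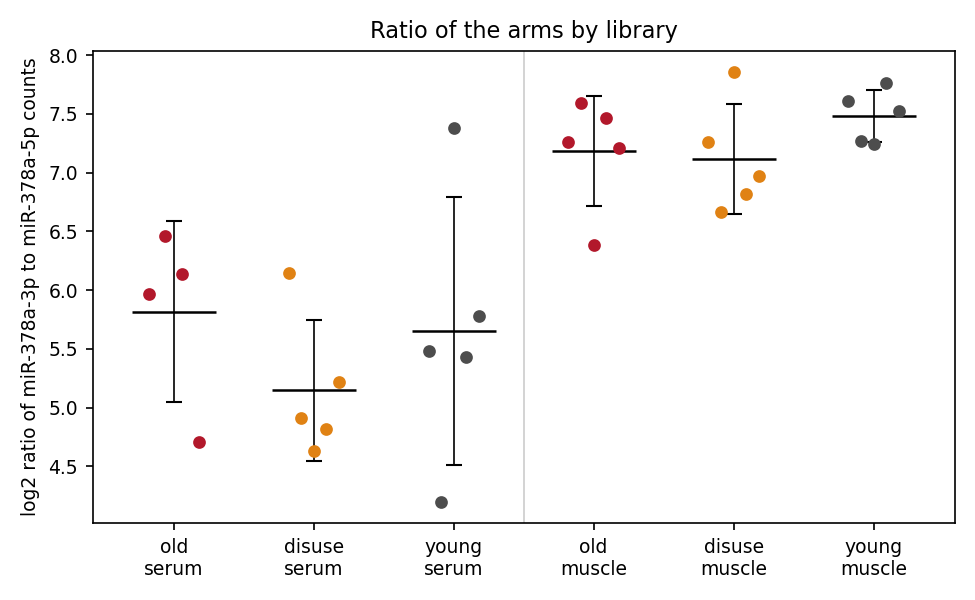
Log2 ratio of miR-378a-3p to miR-378a-5p counts in each library (pseudocount 0.5), by group; points are libraries, long bars are means and error bars are 1 SD (n = 4 for old serum, 5 for each other group). Muscle means are 7.11 to 7.48 and serum means 5.15 to 5.82, and young serum 3 lies among the muscle libraries.

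No relation between the levels of the strands was found across libraries. Levels were compared here as log2 CPM scaled by TMM factors. Over the 15 muscle libraries Pearson's r of 3p and 5p was 0.24 (permutation p = 0.387, adjusted 0.774 over 2 relations) and Spearman's rho 0.17 (permutation p = 0.549, adjusted 0.753). Without old muscle 1 and 5, the libraries farthest from the median of 3p, r was -0.12. Over the 14 serum libraries r was 0.01 (permutation p = 0.986) and rho -0.10 (permutation p = 0.753), and r was -0.20 without old serum 1 and young serum 4. With CPM of library totals r was 0.08 in muscle (permutation p = 0.779, rho 0.12) and 0.36 in serum (permutation p = 0.208, rho 0.35), so the value in serum depended on the scaling. Within single groups r ran from -0.73 in disuse muscle to 0.63 in old serum, over 5 and 4 libraries.

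Among the other family members, miR-378d had similar mean proportions to miR-378a-3p in serum and muscle, with a wide spread in serum, and miR-378c did not. Per 100 counts of miR-378a-3p there were 18.8 to 28.7 counts of miR-378c in old serum and 2.47 to 3.43 in old muscle, 18.4 to 28.9 in disuse serum and 2.60 to 3.21 in disuse muscle, and 15.0 to 32.0 in young serum and 2.76 to 3.41 in young muscle. No serum library overlapped any muscle library in this proportion. For miR-378d the means were 3.03 ± 1.12 in old serum and 2.88 ± 0.254 in old muscle, 2.55 ± 1.83 in disuse serum and 3.07 ± 0.148 in disuse muscle, and 2.96 ± 1.5 in young serum and 3.09 ± 0.267 in young muscle. These proportions were picked out after their values were seen and were not tested. In serum those of miR-378d rest on 1 to 26 counts a library.

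Fitted changes between serum and muscle are given for the same miRNAs. miR-378c averaged 431 ± 94.3 CPM in old serum and 1339 ± 217 CPM in old muscle, and its log2 fold change between serum and muscle was -2.05 ± 0.25 in old, -2.17 ± 0.16 in disuse and -2.30 ± 0.31 in young libraries, or 4.14-, 4.49- and 4.94-fold lower (edgeR adjusted p = 2.82e-07, 1.23e-09 and 9.19e-07). miR-378d averaged 59.1 ± 27.0 CPM in old serum and 1328 ± 148 CPM in old muscle, and had log2 fold changes of -5.11 ± 0.34, -5.15 ± 0.31 and -5.19 ± 0.40 in old, disuse and young libraries, close to those of miR-378a-3p. miR-378b was rare, with 1 count in all old serum libraries and 415 in all old muscle libraries. In muscle miR-378a-3p made 94.5% ± 0.324 of the summed counts of the 4 miRNAs in old, 94.4% ± 0.303 in disuse and 94.1% ± 0.205 in young libraries, and in serum 79.2% ± 2.98, 80.0% ± 2.33 and 79.6% ± 4.71. The serum and muscle shares did not overlap, and the means within each source were close. miR-378b, miR-378c and miR-378d did not pass in any muscle comparison, nor did miR-378c and miR-378d in any serum comparison, where miR-378b was not tested (smallest adjusted p = 0.432).

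The counts of miR-378b, miR-378c and miR-378d were also added to those of miR-378a-3p. Which of them a shared read was given to then plays no part, provided that each read was counted once. Shared reads that were dropped, or counted for every match, would still affect the sum, and the rule is not stated. The summed counts gave a log2 fold change of 0.30 ± 0.14 between old and young muscle (edgeR adjusted p = 0.212). Between serum and muscle the summed family was 26.8-fold lower in old, 28.5-fold in disuse and 29.2-fold in young libraries.

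**Figure D4:**
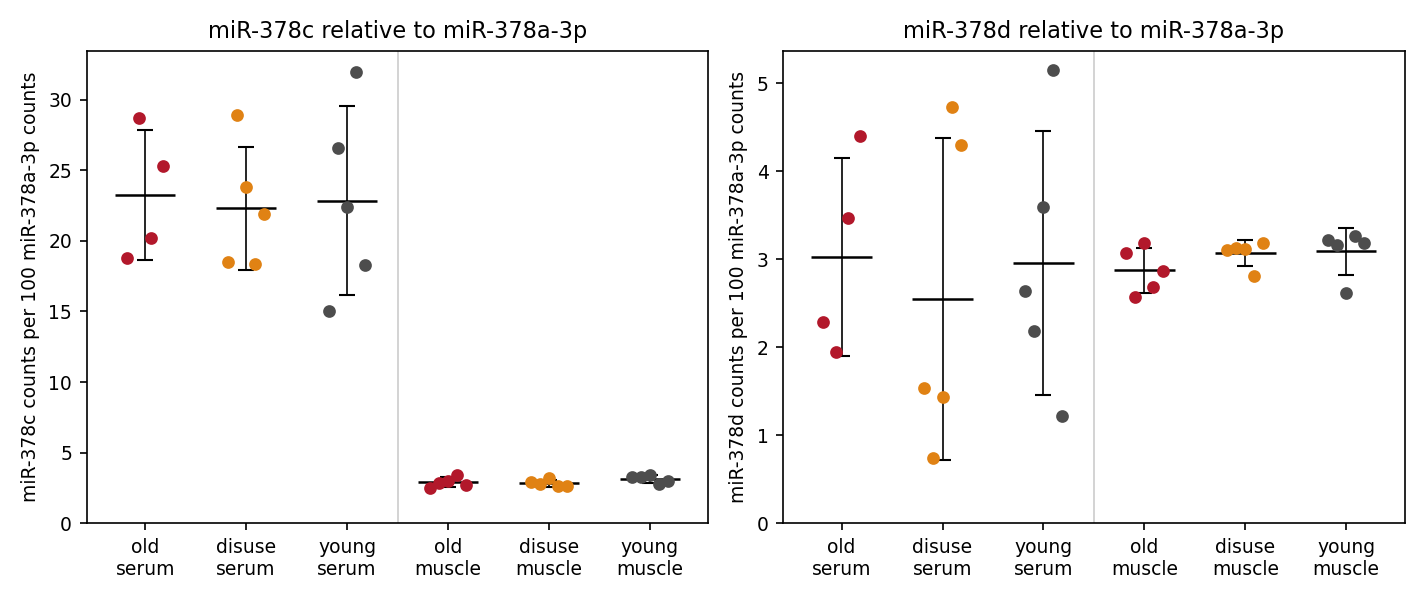
Counts of miR-378c (left) and miR-378d (right) per 100 counts of miR-378a-3p in each library, by group; points are libraries, long bars are means and error bars are 1 SD (n = 4 for old serum, 5 for each other group). miR-378c lies at 15.0 to 32.0 in serum and 2.47 to 3.43 in muscle libraries, while the miR-378d points of serum spread around those of muscle.

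Likeness of pattern was measured as the root-mean-square difference over the 6 groups of the centred group mean log2 CPM, here scaled by TMM factors with a prior count of 0.5, among 237 other miRNAs. The miRNAs nearest to miR-378a-3p outside its family were miR-145a-5p, a smooth muscle miRNA (0.29), miR-193a-3p (0.34), miR-30c-1-3p (0.35), miR-3102-3p (0.38) and miR-331-3p (0.43). In the family miR-378d was nearer than any of these (0.20), and miR-378c, at 1.46, was 64th of the 237. The value for miR-378d rests on 109 counts over the 14 serum libraries, 1 to 26 in each. Of the 5 outside the family, miR-145a-5p was well counted in serum, with 15 to 80 counts a library. The other 4 were close to undetected there: miR-193a-3p and miR-30c-1-3p had 6 counts each over all 14 serum libraries, miR-331-3p 15 and miR-3102-3p 22. Their serum levels are largely set by the prior count, so for these 4 the likeness is to a level near the floor and not to a measured serum level. The miRNAs nearest to miR-378a-5p were miR-150-5p, a lymphocyte miRNA (0.30), miR-674-5p (0.32), let-7b-5p (0.34), miR-676-3p (0.38) and let-7c-5p (0.39). Among them miR-674-5p had 19 counts over the 14 serum libraries, so its serum level is near the floor too, and miR-378a-5p itself had 82. The likeness to miR-150-5p does not extend to leukocyte miRNAs as a set. Of 5 listed leukocyte miRNAs, 4 rose and 1 fell in serum relative to muscle in each state. The strands of miR-378a differed from each other by 0.82, and better counted miRNAs of other families were nearer to each (miR-145a-5p to 3p, and miR-150-5p, let-7b-5p, miR-676-3p and let-7c-5p to 5p). The differences of pattern describe the group means and carry no test.

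**Figure D5:**
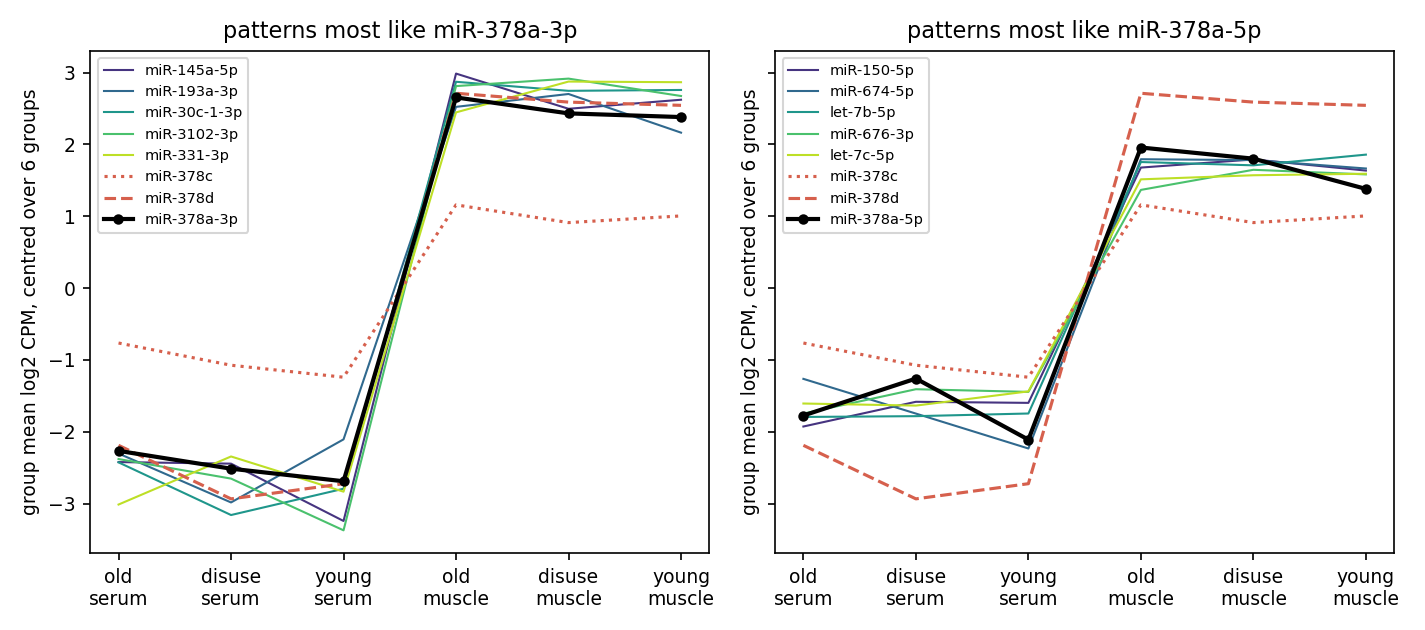
Group mean log2 CPM, centred over the 6 groups, of miR-378a-3p (left, black) and miR-378a-5p (right, black) with the 5 miRNAs of most similar pattern and with miR-378c and miR-378d; lines join groups only to guide the eye. miR-378d runs along miR-378a-3p, and miR-378c is less far down in serum than miR-378a-3p.

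A list of 25 miRNAs linked to energy metabolism or mitochondria in muscle or liver set the strands beside others of similar role. In muscle 20 were tested. Between old and young muscle 1 rose, miR-29a-3p, which targets collagen and insulin signalling messenger RNAs (0.75 ± 0.16, edgeR adjusted p = 0.00294), 0 fell and 19 did not pass (median -0.04). That is 1 of 20, near the 5.87% of all miRNAs that passed. Between disuse and young muscle 0 of 20 passed in edgeR (median -0.01). Between old and disuse muscle 1 rose, miR-34a-5p, which targets the deacetylase gene Sirt1 (0.88 ± 0.24, adjusted p = 0.0348), and 19 did not pass (median 0.00). That is again 1 of 20, where 3.52% of all miRNAs passed. In serum 14 were tested, and miR-181a-5p fell between old and young serum (-0.85 ± 0.21, adjusted p = 0.0184), 1 of 14 where 9.7% of all tested passed. The other 2 serum comparisons had 0 of 14 in edgeR, and the medians were 0.07, -0.05 and 0.10 for old against young, disuse against young and old against disuse serum.

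Between serum and muscle the listed miRNAs went both ways. In old libraries 7 of 19 tested rose and 9 fell, in disuse libraries 5 of 16 rose and 7 fell, and in young libraries 3 of 16 rose and 7 fell. Of all tested miRNAs 24.7% rose and 44.6% fell in old, 38.0% rose and 48.4% fell in disuse, and 32.6% rose and 43.7% fell in young libraries, so the list's counts were not far from the background. In all 3 states miR-23a-3p, miR-130b-3p and miR-181c-5p rose, and miR-1a-3p, miR-27b-3p, miR-34a-5p, miR-133a-3p, miR-149-5p and miR-181a-5p fell. miR-143-3p fell in disuse and young libraries, and miR-27a-3p and miR-30a-5p rose in old and disuse libraries. In old libraries miR-107-3p and miR-210-3p also rose. miR-382-5p, miR-485-5p and miR-499-5p fell there (-7.46 ± 1.92, -8.11 ± 1.83 and -9.03 ± 1.33) but were not tested in the other states. They are among the 9 that fell, and their fall cannot be called particular to old libraries. Of them miR-499-5p was at 0 counts in old serum. miR-130b-3p, which targets Pparg in fat cells, rose in serum relative to muscle in each state (4.53 ± 0.36, 4.32 ± 0.21 and 4.30 ± 0.48 in old, disuse and young libraries). miR-149-5p, known in mouse muscle as a regulator of mitochondrial function, fell in each state, by larger estimates than miR-378a-3p, at -7.11 ± 0.30, -6.83 ± 0.24 and -6.66 ± 0.37.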

How the data were processed

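The authors deposited a single table of unnormalized read counts, with mature miRNAs in rows and libraries in columns. Bowtie and the build mm10 are named per the submitters' processing notes; versions, miRNA annotation and filters are not given there or in the labels. Per the labels' protocols, library input was 2 µg of RNA for muscle and 10 ng for serum (from 300 µl), with up to 15 PCR cycles. The last column's unit was recorded as other, because 488 rows have 28 values and, read from the left, no cell there. Which library's value is missing in them is not known. In complete rows the authors' values are counts. The 695 complete miRNAs of 1183 were used, and each column matched a sample by title.

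Tests used edgeR 4.0.16 (glmQLFit, glmQLFTest, TMM factors, filterByExpr) in R 4.3.3 with Benjamini-Hochberg adjustment over all tested miRNAs and a threshold of 0.05. The 15 muscle libraries, the 14 serum libraries, the libraries of each state and all 29 were fitted separately. The SE is the log2 fold change divided by the square root of F. CPM of library totals are descriptive, while folds use TMM. Ratios of strands used a pseudocount of 0.5 and exact permutation tests, and correlations 100000 permutations. Alternatives used DESeq2 1.42.0 and limma 3.58.1. The edgeR fit was tested on simulated data. Adding the other family members' counts to miR-378a-3p was chosen after seeing the data. The members, lists and naming rules (the family, nearest patterns, neighbours in abundance, the metabolic list) were chosen with earlier results of these data known.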

Additional observations from a re-analysis of the deposited data

Results flagged for a closer look

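The level of miR-378a-3p in old muscle 3 was 35609 CPM, far below the other 4 old muscle libraries. The gap to the next library was 0.84 of the group's whole range, above the limit of Dixon's test for 5 samples. In all 18 groups of values were checked (both strands and their ratio in 6 groups), and chance flags about 1 in 20. Without that library the log2 fold change between old and young muscle was 0.41 (edgeR adjusted p = 0.122).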

How the results depend on the processing

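Of 566 recomputed values of the strands' log2 fold changes (22 results), 507 kept direction and call, 3 newly passed, none lost its call and 56 changed sign. No value that changed sign passed before or after, and for these the cause was not tested. For miR-378a-3p, disuse against young muscle was -0.076 with upper-quartile factors. Disuse against young serum was 0.043 with RLE factors, 0.017 with upper-quartile factors, 0.142 without a filter, 0.012 at a mean of at least 10 CPM, 0.044 with DESeq2, 0.011 with limma-voom and 0.057 thinned, and -0.17 to 0.20 leaving out each library. The difference between serum and muscle in the age change was -0.12 with library totals, -0.12 without a filter, -0.068 at 10 CPM, -0.12 thinned and -0.18 to 0.25 leaving out each library. That in the disuse change was -0.019 with upper-quartile factors, -0.13 with library totals, -0.13 at 10 CPM, -0.26 thinned and -0.17 to 0.21 leaving out each library. For miR-378a-5p, old against young serum was 0.028 with limma-voom. Its difference between serum and muscle in the disuse change was 0.014 without a filter, 0.21 with limma-voom, 0.01 with incomplete rows read from the right and -0.25 to 0.54 leaving out each library. Leaving out each library gave 0.52 to 0.77 for old against young muscle, where 3 omissions passed, -3.76 to -2.94 for young serum against young muscle, lowest without young serum 2, and -0.006 to 0.257 for old against disuse muscle. The thinned serum and thinned young fits gave no value for this strand.

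For the ratio of 3p to 5p, 95 of 105 recomputed values kept direction and call, 4 newly passed and 6 changed sign. With a pseudocount of 1 the log2 difference between serum and muscle was -1.54 in old, -2.06 in disuse and -2.04 in young libraries. Leaving out each library gave -2.26 to -1.46 in young serum against muscle, which passed without young serum 3 (adjusted exact permutation p = 0.0357), -0.043 to 0.268 in old against disuse muscle and -0.20 to 0.59 in old against young serum. The correlation of the strands was -0.12 in muscle and -0.20 in serum without the 2 farthest libraries, and -0.15 to 0.23 in serum leaving out each library. With CPM of library totals it was 0.08 in muscle and 0.36 in serum, the largest value in serum.

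Deviations of same-numbered libraries correlated above 0.1 in 2 of 15 pairs in muscle, against 16 of 60 pairs with other numbers. In serum they did in 6 of 13 pairs (median r 0.09), against 9 of 52 (median -0.03). Since not every pair exceeded 0.1, the numbers were not taken to pair the libraries. That rule is strict and cannot show that no libraries were paired. With the replicate block, old against young muscle was 0.29 for miR-378a-3p (adjusted p = 0.294) and 0.60 for miR-378a-5p (adjusted p = 0.129). Old against young serum was 0.29 for miR-378a-3p (adjusted p = 0.529) and -0.35 for miR-378a-5p (adjusted p = 0.785). No call on either strand changed with the block.

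Counts of all miRNAs called, the background of the strands' own counts, ran over the alternatives from 9 (thinned) to 36 (upper-quartile factors) against 20 in old against young muscle, 0 to 3 against 1 in disuse against young muscle, 4 to 18 against 12 in old against disuse muscle, 1 (without old serum 2) to 21 (DESeq2) against 16 in old against young serum, 0 to 5 against 0 in disuse against young serum and 0 to 6 against 4 in old against disuse serum. Between serum and muscle they ran from 93 to 273 against 219 in old, 129 to 327 against 166 in disuse and 94 to 270 against 145 in young libraries, and for the differences of a change 1 to 11 against 2 with age and 0 to 5 against 0 with disuse. Depth limits miR-378a-5p in serum, at 1 to 19 counts a library.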
